A study of Mus musculus with 28 samples.

Results

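The proteasome genes described here were the genes of a liver RNA sequencing table whose symbol begins with Psma, Psmb, Psmc, Psmd, Psme, Psmf or Psmg followed by a digit. The rule found 50 of the 17792 genes in the table. Of these, 47 reached 1 FPKM (mapped fragments scaled to the length of the transcript and to the total of the library) in at least 3 libraries and were tested together with all 11213 genes that did so. The other 3 were Psmb11, a thymus-specific subunit, Psme2b, a copy of Psme2, and Psmc3ip, whose protein acts in meiotic recombination and is no proteasome subunit. All 47 but Psma8, a testis-type alpha subunit that reached 1 FPKM in exactly 3 libraries, passed in all 28 libraries, so the filter did not select them by agent. The remaining 46 comprised 7 core alpha, 7 constitutive core beta, 6 cap ATPase, 11 cap non-ATPase, 4 activator, 3 immunoproteasome and 8 assembly or inhibitor genes.

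The proteasome degrades proteins that carry ubiquitin chains. Its core is a barrel of alpha and beta rings, and the beta subunits Psmb5, Psmb6 and Psmb7 carry the proteolytic sites. The cap binds the ubiquitin chain, and its ATPases unfold the protein and push it into the core. Interferon gamma induces Psmb8, Psmb9 and Psmb10, which take the places of Psmb5, Psmb6 and Psmb7 to form the immunoproteasome, a form known for cutting peptides for MHC class I. The transcription factor Nfe2l1 is known to raise core and cap genes when proteasome capacity is short.

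Whole liver of C57BL/6 mice was sequenced in 28 libraries of 8 groups. Wild-type (WT) mice and mice with a macrophage-specific knockout of Pparg (KO) received by gavage either DEHP, di(2-ethylhexyl) phthalate, which softens plastics and is known to act through the nuclear receptor PPARalpha in rodents, at 625 mg per kg body weight or the vehicle, 0.5% carboxymethyl cellulose (CMC). Treatment lasted 28 days (3 libraries a group, numbered 5 to 7) or 90 days (4 libraries a group, numbered 1 to 4). The labels give 12 mice a group, do not say which mice gave a library and do not name the Cre driver, so p-values measure the spread between libraries, which may be in part technical.

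Some facts of the libraries touch what follows. Ehhadh, a PPARalpha target, spanned 32.58 to 393.51 FPKM in CMC libraries and 413.1 to 5339.79 in DEHP libraries. Pparg in whole liver overlapped between genotypes, at 1.51 to 7.65 FPKM in WT and 1.51 to 6.69 in KO. The deletion is labelled as specific to macrophages, so whole-liver Pparg checks it poorly. Lyz2, a macrophage lysozyme gene, spanned 38.46 to 120.01 FPKM in WT and 0.73 to 2.67 in KO. The labels call all mice male, but Xist spanned 26.72 to 41.0 FPKM in the 12 libraries of 28 days and at most 0.02 in the 16 of 90 days, and the Y-linked Ddx3y was 0 in the former and 6.27 to 12.96 in the latter. Any difference between times therefore cannot be told apart from this difference. Exocrine pancreas transcripts were abundant in 5 libraries of 90 days (WT CMC 4, WT DEHP 4 and KO DEHP 1 to 3). Endothelial markers were low in WT CMC 7 and WT DEHP 5 of 28 days and KO DEHP 4 of 90 days. Hepatocyte markers, of which Alb and Apoa2 were the most abundant, summed to at least 51563.0 FPKM in every library.

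At 28 days DEHP raised most genes of the proteasome core and cap in both genotypes, while Psmb8 of the immunoproteasome fell. In WT, limma with Benjamini-Hochberg adjustment called 32 of 47 members higher and 2 lower, where 10.3% of all genes tested were called higher and 6.17% lower. In KO it called 33 higher and 1 lower, against 11.6% and 8.77% of all genes. The median log2 fold change of the 47 was 0.43 in WT and 0.61 in KO, and that of all genes tested was -0.01 and -0.04. All fold changes are on the log2(FPKM + 1) scale.

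**Figure D1:**
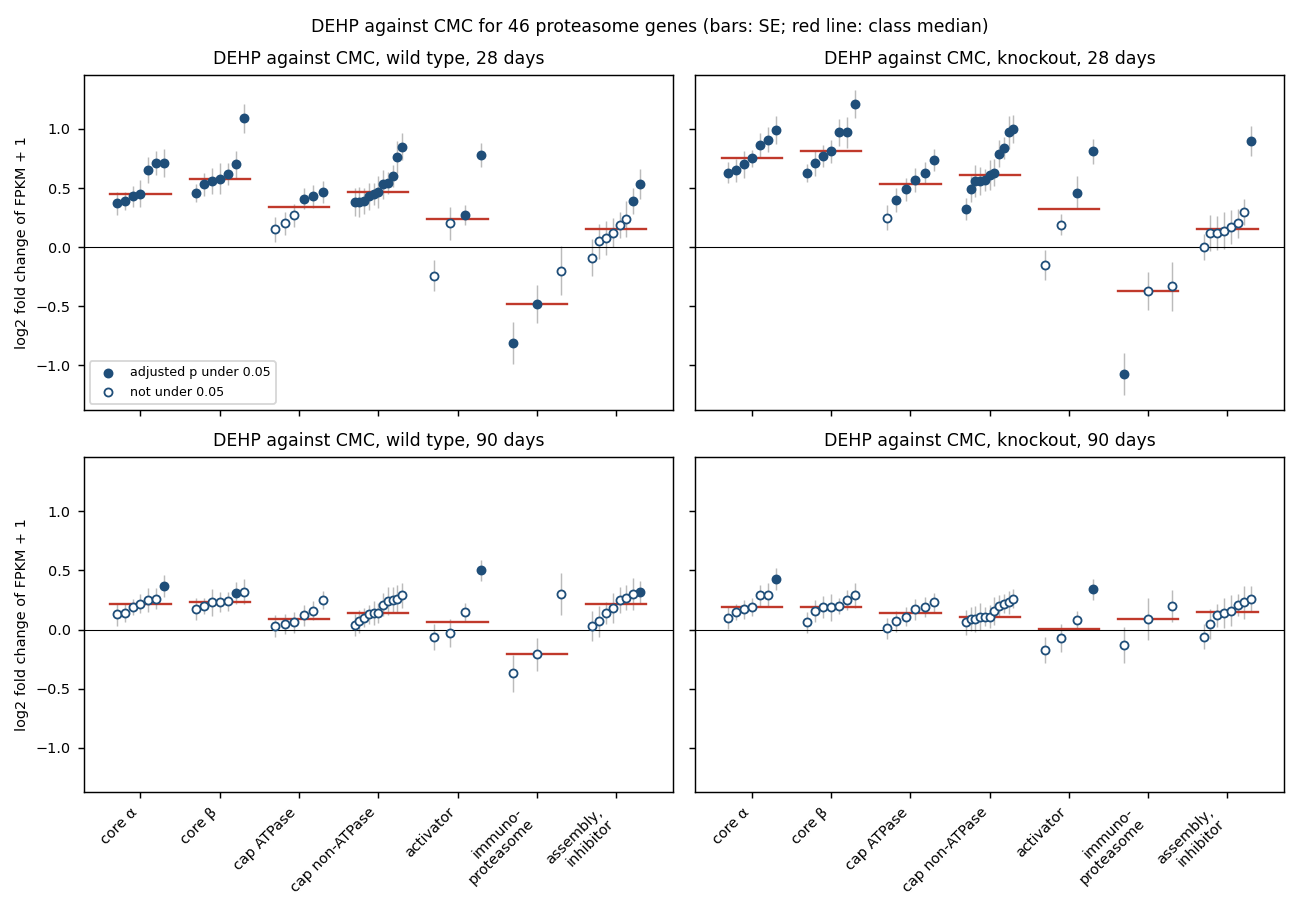
Fitted log2 fold change of FPKM + 1, DEHP against CMC, for 46 members by class (x axis) in the 4 strata, with standard errors, class medians as red lines and filled points for an adjusted p under 0.05. At 28 days all core points lie above 0 and are filled, and the 3 immunoproteasome points lie below 0. At 90 days most points are open and closer to 0.

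The core alpha genes, which form the outer rings and the gate of the barrel, were all called higher at 28 days, 7 of 7 in each genotype, with a median log2 fold change of 0.45 in WT and 0.75 in KO. Psma5 read 42.93, 39.21 and 39.59 FPKM in the 3 WT CMC libraries and 68.18, 62.88 and 69.45 in the 3 WT DEHP libraries. In KO it read 48.79, 41.35 and 36.86 under CMC and 84.53, 94.53 and 75.46 under DEHP. The DEHP libraries lay above the CMC libraries without overlap in both genotypes. The fitted change on the log2 scale was 0.71 in WT and 0.99 in KO, each with an SE of 0.118, and adjusted p was 1.0e-04 and 7.4e-07. The smallest changes of the class were 0.37 for Psma6 in WT and 0.63 for Psma3 in KO.

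The constitutive core beta genes held the largest change of all members. All 7 were called higher in both genotypes at 28 days, with medians of 0.58 and 0.81. Psmb5, the subunit with the chymotrypsin-like site, read 94.32, 102.48 and 105.54 FPKM in WT CMC libraries and 217.05, 189.85 and 242.4 in WT DEHP libraries. In KO the values were 111.76, 119.25 and 107.28 under CMC and 274.73, 283.44 and 228.44 under DEHP. Every DEHP library thus held well above the highest CMC library. The mean rose 2.15-fold in WT, from 100.8 ± 5.8 to 216.4 ± 26.3 FPKM (SD, n = 3), and 2.33-fold in KO, from 112.8 ± 6.05 to 262.2 ± 29.6, with limma adjusted p of 4.4e-07 and 7.7e-08. Psmb6 (caspase-like site) changed by 0.56 and 0.71 on the log2 scale, and Psmb7 (trypsin-like site) by 0.62 and 0.77, all called. Psmb4, a structural subunit, rose from 129.0 ± 7.66 to 210.4 ± 18.7 FPKM in WT and from 131.1 ± 8.24 to 258.3 ± 33.7 in KO (SD, n = 3).

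**Figure D2:**
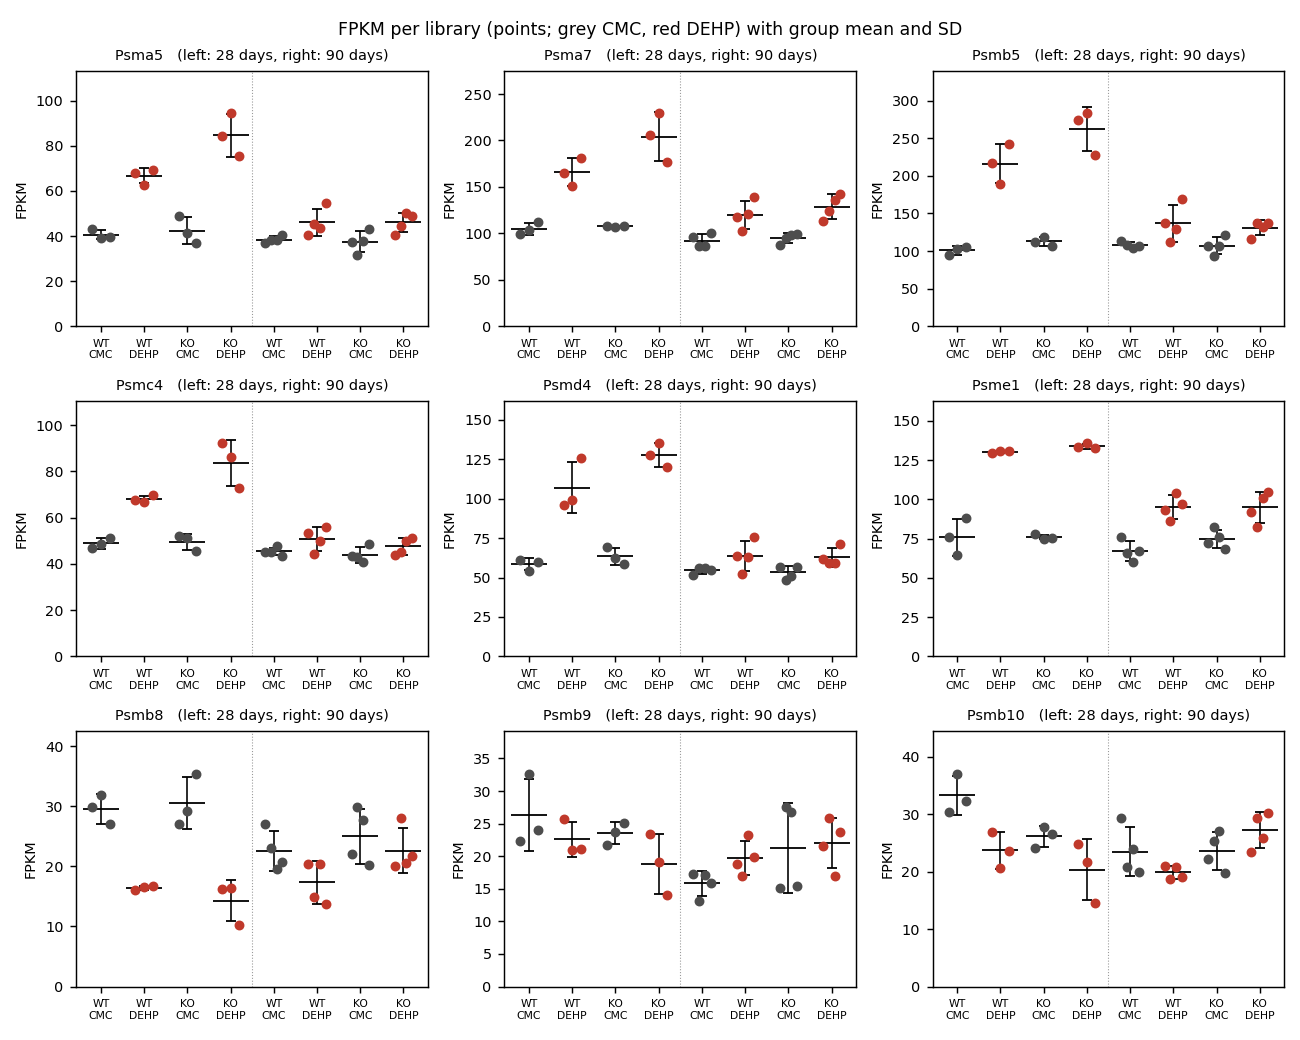
FPKM of 9 members in each of the 28 libraries (points, grey CMC and red DEHP) with group mean and SD, 28 days left of the dotted line and 90 days right of it. For Psmb5 the 28-day DEHP libraries span 189.85 to 283.44 FPKM and the 28-day CMC libraries 94.32 to 119.25, and Psmb8 runs the other way.

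The cap ATPases, which unfold the substrate, moved less evenly. In WT 3 of 6 were called higher at 28 days, with a class median of 0.34, and in KO 5 of 6, with a median of 0.53. Psmc4 read 46.76, 48.54 and 51.12 FPKM in WT CMC libraries and 67.74, 66.71 and 69.63 in WT DEHP libraries, which gave a log2 difference of 0.47 (SE 0.0933) and an adjusted p of 6.8e-04. In KO it changed by 0.74 (adjusted p = 1.9e-06). Psmc5 passed in neither genotype, with 0.15 (adjusted p = 0.388) and 0.25 (adjusted p = 0.1), and its KO libraries overlapped. Psmc2 (0.20, adjusted p = 0.205) and Psmc6 (0.27, adjusted p = 0.068) did not pass in WT and did in KO. Whether the genotypes differ in these genes is the subject of the interaction test further on. It called no member, which does not show that the genotypes are alike.

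The cap non-ATPase genes were called higher in 11 of 11 cases in both genotypes at 28 days, with medians of 0.47 and 0.61. Psmd4, a receptor for ubiquitin chains, read 61.33, 53.94 and 60.05 FPKM in WT CMC libraries and 95.97, 99.21 and 125.72 in WT DEHP libraries. In KO it read 69.33, 62.35 and 58.81 under CMC and 127.65, 135.09 and 119.95 under DEHP. The groups did not overlap, and the fitted log2 change was 0.85 in WT and 1.00 in KO, each with an SE of 0.115, and adjusted p was 6.1e-06 and 5.1e-07. Psmd14, the enzyme that removes the ubiquitin chain at the cap, changed by 0.76 and 0.97, both called. Psmd7, its partner without catalytic activity, changed by 0.45 and 0.32, both called.

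For the core and cap together, 28 of 31 genes in WT and 30 of 31 in KO were called higher at 28 days and none lower. DEHP and CMC libraries did not overlap for 31 of 31 in WT and 30 of 31 in KO, where 15.4% and 19.2% of all genes tested stood apart upward. The same libraries held less of the hepatocyte marker list, with 6 of 12 markers called lower in WT and 8 of 12 in KO, where 6.17% and 8.77% of all genes were called lower. Its summed level ranged from 77862.2 to 93558.5 FPKM in WT CMC and 60706.2 to 62881.0 in WT DEHP, and from 84503.7 to 86258.9 in KO CMC and 55008.0 to 57510.9 in KO DEHP, with no marker at 0. Since FPKM are shares of a library, its part in the core and cap result was not tested. The endothelial marker list had 0 of 15 members called in either genotype. Without the 3 libraries low in it 32 members were called in WT and 35 in KO at 28 days. The share of all genes called in that fit is not given here. Of these libraries WT CMC 7 and WT DEHP 5 are of 28 days and none is a KO library of that time. The KO count thus does not bear on endothelial content in KO at 28 days. In whole liver, more cells of a type and more RNA per cell cannot be told apart.

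The Psmb5 and Psmd4 genes are shown with the DNA before their starts because they changed most among core and cap genes in both genotypes at 28 days. The sequences are RefSeq's for GRCm38.p6, on the strand of the gene, and capitals mark matches to the motifs searched. The Psmb5 stretch (chr14:54618023-54618245, minus strand) stops 27 bases before the RefSeq start, where a GENCODE exon begins. The Psmd4 stretch (chr3:95042615-95042864, minus strand) ends at the RefSeq start.
Psmb5: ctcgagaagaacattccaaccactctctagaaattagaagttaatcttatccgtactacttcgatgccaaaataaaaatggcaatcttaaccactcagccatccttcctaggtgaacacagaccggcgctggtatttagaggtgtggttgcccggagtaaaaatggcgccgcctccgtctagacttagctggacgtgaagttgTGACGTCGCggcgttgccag
Psmd4: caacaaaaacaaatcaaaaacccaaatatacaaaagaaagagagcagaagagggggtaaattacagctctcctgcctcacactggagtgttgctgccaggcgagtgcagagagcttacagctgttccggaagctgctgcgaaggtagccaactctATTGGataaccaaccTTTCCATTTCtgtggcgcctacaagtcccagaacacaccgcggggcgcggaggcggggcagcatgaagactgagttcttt

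The capitals in Psmb5 match the antioxidant response element TGACNNNGC, to which Nfe2l1 and Nfe2l2 are known to bind, 47 bases before the start. Those in Psmd4 match CCAAT and the interferon-stimulated response element, searched as 2 copies of GAAA with 2 bases between them, both on the other strand. Both strands of the 250 bases before the RefSeq start were searched in the 39 tested members that had a window, together with the interferon gamma element TTCNNNGAA and the PPAR element, searched as 2 copies of AGGTCA with 1 base between them. A match to TGACNNNGC was found for 4 of 25 core and cap genes (16.0%), Psmb5, Psmb6, Psmc6 and Psmd12, and for 14.0% of the 8998 tested genes with a window. The share in core and cap genes was thus close to that of tested genes. CCAAT was found for 10 of the 25 and for 40.6% of tested genes, and the interferon-stimulated element for 2 of the 25 and for 3.21%. The interferon gamma element and the PPAR element, held by 7.12% and 0.0667% of tested genes, were found for none of the 25. In 27 of the 39 members every window touched a GENCODE exon, so part of what was searched is transcribed.

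Among the activators, which open the core without the cap, Psme1 was called higher in all 4 DEHP comparisons, as was Psma7 of the core. Psme1, which pairs with Psme2 in an activator known to be induced by interferon gamma, read 75.77, 64.37 and 87.84 FPKM in WT CMC libraries and 129.82, 130.6 and 130.99 in WT DEHP libraries at 28 days. In KO it read 77.74, 74.79 and 75.53 under CMC and 133.69, 135.68 and 132.6 under DEHP. The DEHP libraries did not overlap the CMC libraries at either time. The log2 changes were 0.78, 0.81, 0.50 and 0.34 in WT and KO at 28 days and WT and KO at 90 days, with adjusted p of 4.9e-06, 2.4e-06, 0.00108 and 0.0259. The last call was lost in 5 of 8 omissions of 1 library and in 7 of 12 processing alternatives. That of Psma7 in KO at 90 days was lost in 1 of 12. In KO at 90 days only DEHP libraries held pancreas transcripts, and with a pancreas covariate neither call remained. Psme2, the partner of Psme1, was called higher in WT at 28 days alone, by 0.27 (adjusted p = 0.0297). This call was lost when 3 of the 6 libraries were left out in turn. Psme3, a nuclear activator, had values of -0.24, -0.15, -0.06 and -0.17 and was not called. Psme4, a large activator known from DNA repair and testis, was called in KO at 28 days (0.46, adjusted p = 0.0203), a call lost in 3 of 6 omissions. Psme4 shares 18357 bases of the genome with Erlec1, and reads of overlapping genes may not be separable, since strand is not stated.

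Of the immunoproteasome genes, Psmb8 fell in both genotypes and Psmb10 in WT at 28 days, and Psmb9 was called in neither. Psmb8 read 29.81, 31.88 and 26.99 FPKM in WT CMC libraries and 15.98, 16.55 and 16.69 in WT DEHP libraries. In KO it read 27.04, 29.23 and 35.42 under CMC and 16.19, 16.35 and 10.29 under DEHP. The groups did not overlap, while 11.0% and 22.5% of all genes stood apart downward in WT and KO. On the log2 scale the change was -0.81 in WT and -1.07 in KO, each with an SE of 0.178, and adjusted p was 0.00187 and 7.3e-05. Psmb10 fell by 0.48 in WT (adjusted p = 0.0397), a call lost in 4 of 6 omissions, and its value was -0.37 in KO (adjusted p = 0.0992). Psmb9 had -0.20 and -0.33, with adjusted p of 0.604 and 0.294, and its groups overlapped.

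The share of each immunoproteasome subunit in the summed FPKM of its pair, and the log2 ratio of the pair, combine the changes of both genes, so a lower value does not show a fall of the immunoproteasome subunit. For Psmb9, which was not called, the ratio at 28 days was lower while Psmb6 rose, and for Psmb8 the rise of Psmb5 is part of the ratio. Psmb8 made up 22.7% ± 2.0 of Psmb8 plus Psmb5 in WT CMC and 7.11% ± 0.818 in WT DEHP at 28 days, and 21.3% ± 3.0 and 5.11% ± 0.695 in KO (SD, n = 3). The log2 ratio of Psmb8 to Psmb5 was 2.08 lower under DEHP (difference -2.08), that of Psmb9 to Psmb6 was -0.90 and that of Psmb10 to Psmb7 was -1.12. Each had an exact permutation p of 0.005, two-sided with agent labels permuted within genotype, the smallest the 400 arrangements allow, and 0.0075 after Benjamini-Hochberg adjustment over the 6 ratios. The Psmb9 share of its pair was 23.7% ± 4.53 and 15.3% ± 1.71 in WT CMC and DEHP and 20.5% ± 1.54 and 11.0% ± 1.65 in KO. For Psmb10 the shares were 18.7% ± 1.47 and 9.61% ± 1.12 in WT and 14.9% ± 1.47 and 7.27% ± 1.18 in KO (SD, n = 3). Over the 6 libraries of each agent at 28 days, no Psmb8 share under DEHP reached the lowest under CMC. At 90 days the Psmb8 ratio differed by -0.56 (exact permutation p = 0.00204, adjusted 0.0075). This difference was -0.69 in WT and -0.42 in KO. The Psmb8 shares overlapped in KO, at 14.4 to 24.1% under CMC and 13.4 to 17.0% under DEHP. In WT they did not, at 15.9 to 19.2% and 7.49 to 13.7%, and the lowest was in WT DEHP 4, which holds pancreas transcripts. The ratios of Psmb9 and Psmb10 had 0.03 (adjusted exact permutation p = 0.853) and -0.25 (adjusted 0.0828). By genotype the Psmb10 ratio at 90 days was -0.45 in WT and -0.05 in KO, and whether the genotypes differ in it was not tested.

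**Figure D3:**
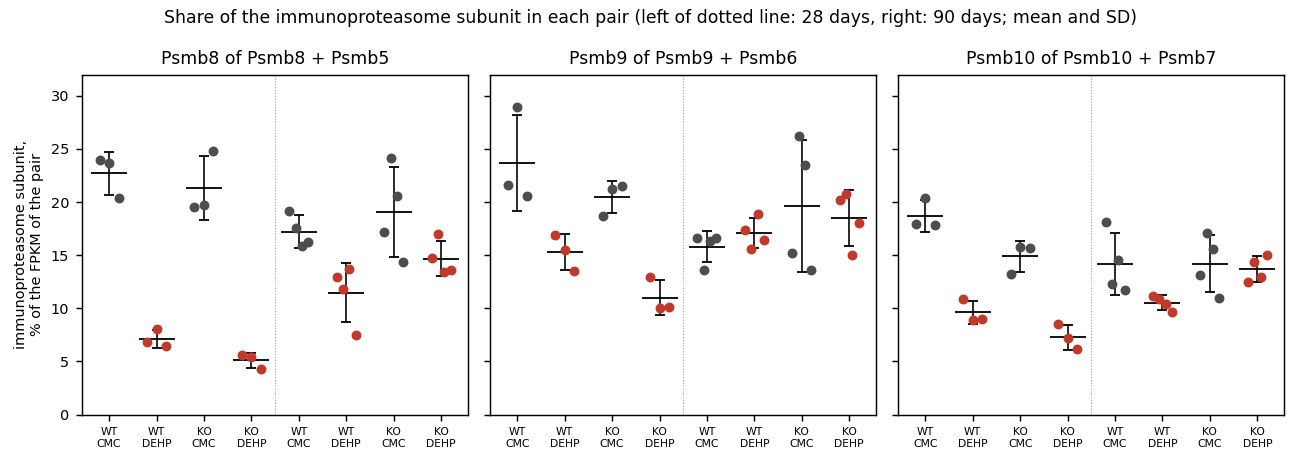
Share of Psmb8, Psmb9 and Psmb10 in the summed FPKM of each subunit and the constitutive subunit whose place it takes, in percent, per library with group mean and SD (grey CMC, red DEHP). At 28 days the Psmb8 share spans 19.5 to 24.8% under CMC and 4.31 to 8.02% under DEHP in the lowest and highest libraries of either genotype.

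Lymphocytes also express immunoproteasome genes, so their markers are given beside these values. Of 18 lymphocyte markers 7 passed the filter, and 0 were called in WT and 1, Ccl5, in KO (-1.01, adjusted p = 0.0277) at 28 days. Sums were taken over the 17 lymphocyte markers measured, including those below the filter. They ranged from 15.7 to 28.1 FPKM in WT CMC and 11.4 to 18.0 in WT DEHP. In KO they ranged from 13.5 to 25.7 under CMC and 7.62 to 14.1 under DEHP. The part of lymphocytes in the fall of Psmb8 was not tested. None of 14 Kupffer cell markers was called in any DEHP comparison.

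Of the 8 assembly and inhibitor genes, few moved. Psmd5, which helps to assemble the base of the cap, was called higher at 28 days in both genotypes, from 15.2 ± 2.28 to 22.4 ± 3.9 FPKM in WT and from 14.9 ± 1.87 to 28.6 ± 3.32 in KO (SD, n = 3), with adjusted p of 0.00418 and 9.3e-06. Psmf1, an inhibitor of the core, was called in WT at 28 days (0.39, adjusted p = 0.0145) and at 90 days (0.32, adjusted p = 0.042). The call of 28 days was lost in 1 of 6 omissions and 2 of 12 processing alternatives. In KO at 28 days Psmf1 was not called. It read 6.94, 7.17 and 7.26 FPKM under CMC and 9.98, 7.53 and 9.63 under DEHP there. These did not overlap, as for 19.2% of all genes. The other 6, Psmd9, Psmd10 and Psmg1 to Psmg4, were called in no DEHP comparison, with log2 fold changes between -0.09 and 0.30. Psmd10 shares 2867 bases with Atg4a.

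Genes that act with the proteasome were described by list. Of 19 tested partners, 4 were called higher in WT and 6 in KO at 28 days, and none lower, where 10.3% and 11.6% of all genes were called higher. Pomp, the chaperone that matures the core, rose from 148.1 ± 13.0 to 202.0 ± 12.0 FPKM in WT and from 139.1 ± 13.2 to 219.4 ± 22.7 in KO (SD, n = 3). Txnl1, a thioredoxin-like protein bound to the cap, changed by 0.44 and 0.63, both called. Of 16 genes around Nfe2l1, 3 were called higher in WT and 5 in KO, beside the same shares of all genes. Nfe2l1 itself changed on the log2 scale by 0.41 (adjusted p = 0.0119) and 0.74 (adjusted p = 2.1e-05), and Vcp, which extracts Nfe2l1 from the endoplasmic reticulum, by 0.48 and 0.51, both called. Mafk, a small Maf partner of Nfe2l1, changed by 0.65 and 0.79, both called. At 90 days Nfe2l1 was not called, at 0.09 and 0.23, and of the 16 only Mafk in KO was called (0.55, adjusted p = 0.0259, without overlap). List medians were 0.20 and 0.25 for partners and 0.20 and 0.21 for the Nfe2l1 genes. Of 18 genes of ubiquitin supply, 2 rose and 1 fell in WT and 2 rose and 2 fell in KO, counts near the shares of all genes called (10.3% and 11.6% higher, 6.17% and 8.77% lower). The genes that rose were Uchl3, which frees ubiquitin from small adducts (0.77 and 0.79, both called), and Usp5, which takes apart free ubiquitin chains (0.42 and 0.61, both called). Ube2g2, a conjugating enzyme of endoplasmic reticulum degradation, fell by 0.44 and 0.60.

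Genes of class I presentation were lower where called. Of 13 tested genes, 3 fell in WT and 6 in KO at 28 days and none rose, where 6.17% and 8.77% of all genes were called lower, with list medians of -0.27 and -0.21. B2m, the light chain of class I, fell from 1751.0 ± 60.2 to 1397.3 ± 11.4 FPKM in WT and from 1682.2 ± 66.4 to 1294.7 ± 54.5 in KO (SD, n = 3). H2-K1, a classical heavy chain, fell by 0.33 and 0.53, and H2-T23, a non-classical one, by 0.76 and 0.87 on the log2 scale. Of 18 tested interferon gamma targets, 3 fell in each genotype and none rose, beside the same shares, among them the GTPases Gbp3 and Iigp1 in both. At 90 days 0 class I genes were called in WT. At an unadjusted p under 0.05 there were 3, and the share of all genes at that cut is not given here. Cd74 stands on the class I list although its protein serves class II.

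At 90 days few members passed. In WT 4 of 47 were called higher (Psma7, Psmb4, Psme1 and Psmf1), against 4.96% of all genes, and in KO 2 (Psma7 and Psme1), against 4.47% higher, and none was called lower, against 1.84% and 1.18%. Psma7 read 96.35, 85.79, 86.01 and 100.48 FPKM in WT CMC libraries and 117.1, 102.82, 121.07 and 138.7 in WT DEHP libraries. In KO it read 87.15, 94.95, 98.19 and 99.5 under CMC and 112.87, 124.22, 135.69 and 142.63 under DEHP. These groups did not overlap, and the log2 changes were 0.37 (adjusted p = 0.016) and 0.43 (adjusted p = 0.00715). Psmb5, with the largest change at 28 days, read 103.81 to 113.68 FPKM in WT CMC and 111.52 to 169.15 in WT DEHP, and 93.77 to 121.1 in KO CMC and 116.41 to 137.56 in KO DEHP. Its groups overlapped in both genotypes, with log2 values of 0.32 (adjusted p = 0.066) and 0.29 (adjusted p = 0.112). Psmb8 was not called either, at -0.37 (adjusted p = 0.163) in WT and -0.13 (adjusted p = 0.735) in KO. Core and cap medians were 0.20 and 0.17, where all genes had -0.01 and 0.03, and 31 of 31 genes were above 0 in each genotype. The 31 genes were read in the same libraries and are not independent observations. The share of all genes above 0 is not given here. DEHP libraries lay above CMC libraries without overlap for 12 of 31 in WT and 11 of 31 in KO, against 7.07% and 8.89% of all genes. The counts depend on single libraries, and the WT calls of Psma7, Psmb4 and Psmf1 were lost in 3, 5 and 6 of 8 omissions. Leaving out WT DEHP 2 gave 10 members in WT, leaving out WT CMC 4 gave 5, leaving out WT CMC 1 or WT DEHP 3 gave 2, and leaving out WT CMC 2, WT CMC 3 or WT DEHP 4 gave 1. In KO the count was 5 without KO CMC 4 and 1 without KO CMC 1, KO CMC 3, KO DEHP 3 or KO DEHP 4. Without the 5 libraries with pancreas transcripts the count was 1 in WT. In KO all libraries with these transcripts were DEHP libraries. Leaving them out left KO DEHP 4 alone in its group, a library low in endothelial markers, so no KO count is given. With replicate number as a block the WT count was 4, with Psmf1 lost (adjusted p = 0.0682) and Psmc1 gained (adjusted p = 0.0484). Same-numbered WT libraries deviated together with number 4, whose libraries both hold pancreas transcripts, and without it their correlations were -0.129 to 0.00852, so the numbers are not taken as pairs.

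**Figure D4:**
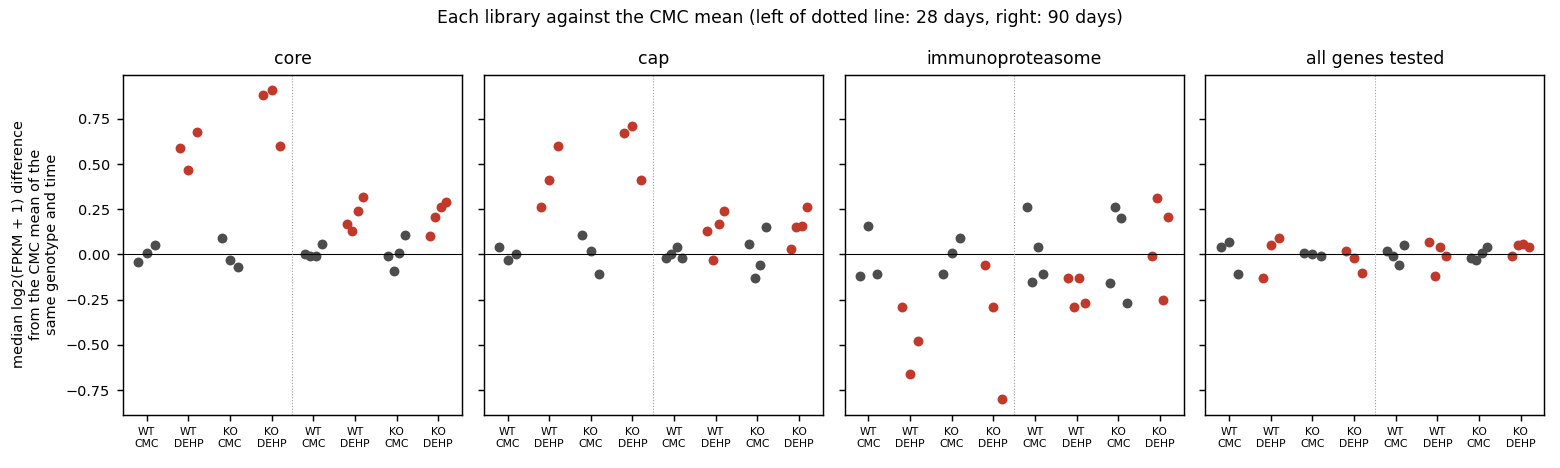
Median difference of log2(FPKM + 1) between a library and the CMC mean of its genotype and time, over core, cap and immunoproteasome genes and over all genes tested, with 1 point a library (grey CMC, red DEHP). The core values of 28-day DEHP libraries span 0.47 to 0.91, and those of all genes stay between -0.13 and 0.09 over all libraries.

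The DEHP effect differed between times for 28 of 47 members, 27 lower and 1 higher at 90 days than at 28 days, where 9.82% of all genes were called, 4.82% lower and 4.99% higher. All 14 core genes and 11 of 17 cap genes were among them, although the calls of Psmd6, Psmd11, Psmc1 and the core gene Psma6 were lost in 21, 19, 7 and 3 of 28 omissions of 1 library. Psmb5 had an interaction of -0.84 (SE 0.114, adjusted p = 1.4e-05) and Psmd4 of -0.71 (adjusted p = 7.3e-05), and Psmb8 of 0.68 (SE 0.166, adjusted p = 0.00776). Time is tied to the Xist and Ddx3y difference given above, so the cause cannot be told apart.

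Between knockout and wild type limma called 0 of 47 members under either agent at either time, where 0.0446%, 0.0178%, 0.00892% and 0.508% of all genes were called (CMC 28 days, DEHP 28 days, CMC 90 days, DEHP 90 days). At an unadjusted p under 0.05 the counts were 3, 30, 1 and 4 members. The shares above do not apply to this looser cut, and the share of all genes at it is not given here. Under DEHP at 28 days the core and cap genes had a median difference of 0.29, KO above WT, where all genes had 0.05. All 31 were above 0, and 10 of 31 lay higher in KO without overlap, against 6.09% of all genes. These genes share the same libraries, so their common sign is not repeated evidence, and the share of all genes above 0 is not given. With library weights in limma 26 members were called there, and the share of all genes called under that fit is not given here. The genotype by DEHP interaction was called for 0 members at each time, against 0.0178% and 0.0% of all genes. At an unadjusted p under 0.05 the interaction had 3 and 2 members, a cut to which those shares do not apply. Its core and cap median at 28 days was 0.21, and that of all genes -0.02. Per library, the median core and cap difference from the CMC mean was 0.42, 0.44 and 0.65 in WT DEHP and 0.79, 0.79 and 0.50 in KO DEHP, so that 1 KO library lay within the range of WT. For Psmb5 the KO values of 28 days under DEHP, 228.44 to 283.44 FPKM, overlapped the WT values of 189.85 to 242.4.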

How the data were processed

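Libraries were made from liver RNA with an Illumina TruSeq kit, per the labels' protocols. The authors deposited 1 table of FPKM per gene and library, and per the submitters' processing notes Cuffdiff and the builds mm10 and GRCm38 were used; the aligner and read totals are not given in the sources used here. Depth is therefore approximate: from the steps of low FPKM values it was estimated at 9560000 to 14820000 fragments a library. A log2(FPKM + 1) transform was applied, and a gene needed 1 FPKM or more in 3 or more libraries to be tested. Group means of the 8 groups were estimated jointly from the 28 libraries with limma 3.58.1 under R 4.3.3 (20 residual and 4.17 prior degrees of freedom, variance trend), two-sided with Benjamini-Hochberg adjustment over 11213 genes per comparison at 0.05. Ratios of paired subunits were tested by exact permutation. The fit and the permutation were tested on simulated data. Same-numbered WT libraries of 90 days deviated together (residual correlations 0.262, 0.252, 0.22 and 0.665), as in no other comparison, but without number 4, where both libraries hold pancreas transcripts, the correlations were -0.129, -0.00455 and 0.00852. Group and replicate came from the labels. Members and lists were chosen with earlier results of these data known. Every member is accounted for. Genes named with values are the activators, the paired subunits, up to 3 members with the smallest adjusted p per class and DEHP comparison, members called in an interaction, up to 3 called genes per companion list and the 2 most abundant of a marker list; class extremes, uncalled cap genes, Psmd7, Vcp and Ccl5 were added after their values were seen. Python 3.11.15, numpy 2.4.6, pandas 2.3.3 and matplotlib 3.10.9 made the tables and plots. Alternatives were another pseudocount, other filters and scalings, library weights, the block, smaller fits, left-out libraries and a pancreas covariate; leaving out libraries low in endothelial markers was added after seeing the data.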

Additional observations from a re-analysis of the deposited data

Results flagged for a closer look

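Of 188 groups of 4 libraries checked, 7 held a library far from the others, and chance flags about 1 in 20. Psme3 read 17.83 FPKM in KO DEHP 2 of 90 days, where the others spanned 16.69 to 16.84. Psmg3 read 11.11 and Psmd8 55.58 in WT DEHP 2, below the others (16.19 to 17.09 and 66.93 to 69.11). Psma1 read 85.6 in WT DEHP 4, above 74.44. Psmd7 read 29.81 in KO CMC 2, where the others began at 37.19, and Psmb3 129.02 in KO CMC 4, above 105.61. Psma8 read 1.37 in WT CMC 1, above 0.51.

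The effect of DEHP on the log2 scale differed between 90 and 28 days, by the interaction test, for 28 members. Core alpha values were -0.51 (Psma1), -0.46 (Psma2), -0.36 (Psma3), -0.40 (Psma4), -0.58 (Psma5), -0.31 (Psma6) and -0.38 (Psma7). Core beta values were -0.35 (Psmb1), -0.52 (Psmb2), -0.57 (Psmb3), -0.58 (Psmb4), -0.84 (Psmb5), -0.47 (Psmb6) and -0.45 (Psmb7). Cap ATPases had -0.28 (Psmc1), -0.34 (Psmc3) and -0.47 (Psmc4). Other cap genes had -0.51 (Psmd2), -0.71 (Psmd4), -0.32 (Psmd6), -0.38 (Psmd8), -0.37 (Psmd11), -0.39 (Psmd12), -0.60 (Psmd13) and -0.66 (Psmd14). Psmd5 had -0.46, Psme1 -0.38 and Psmb8 0.68. Time and the sex-chromosome transcripts cannot be told apart here.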

How the results depend on the processing

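At 28 days the count of members called stayed within 1.5 times of 34 under every alternative run, at 24 to 35 in WT and 32 to 37 in KO, and leaving out 1 library gave 27 to 33 and 33 to 35. The counts of 90 days moved. In WT (4) they were 2 without a filter, with quantile normalization and with the pancreas covariate, 1 without the pancreas libraries and with the groups compared only, 11 with library weights, and 1 to 10 with 1 library left out. In KO (2) they were 4 with a filter of 5 FPKM, 5 with library weights and 0 with the pancreas covariate. They were 1 with upper quartile scaling, quantile normalization, the groups compared only and without the libraries low in endothelial markers. With 1 library left out they ran from 1 to 5. Leaving out the pancreas libraries left 1 DEHP library in KO, so no count is given. Knockout against wild type under DEHP at 28 days went from 0 to 26 with library weights. The share of all genes called under that fit is not given here, and the cause was not tested. The time interaction (28) ran from 19 to 33, and 24 to 32 with 1 library left out; the other genotype and interaction counts were 0 throughout. Ratio differences with 1 library left out ran from -2.13 to -2.01, -0.96 to -0.80 and -1.18 to -1.06 at 28 days and -0.64 to -0.46, -0.06 to 0.12 and -0.32 to -0.18 at 90 days for Psmb8, Psmb9 and Psmb10. Uncalled values of 90 days changed sign: in WT Psme3 to 0.01 without the pancreas libraries and 0.02 without WT DEHP 4 (-0.19 to 0.02 with 1 library left out), and Psme4 to 0.01 without WT DEHP 2 (-0.06 to 0.01); in KO Psmb6 to -0.01 and Psme2 to -0.05 with quantile normalization, Psmb8 to 0.02 with the pancreas covariate, and Psmb9 to -0.05 and -0.04 without KO CMC 1 and 4 (-0.05 to 0.23). The Psmb9 ratio at 90 days turned to -0.01, -0.03, -0.06 and -0.01 without WT CMC 2, KO CMC 1, KO CMC 4 and KO DEHP 2. The replicate block gave 32 and 34 members at 28 days, 4 and 2 at 90 days and 27 for the time interaction. Only in WT at 90 days were the residual correlations of same-numbered libraries positive for every number, and there they rest on number 4. For KO against WT at 90 days they ran from -0.113 to 0.227 under CMC and from -0.591 to 0.0231 under DEHP. The block took limma adjusted p of Psmb10 and Psme2 in WT at 28 days to 0.0565 and 0.0517. That of Psmd6 in the time interaction went to 0.0851. Blocked exact permutation left the ratios on their side of the threshold, but those that passed were close to it. After adjustment the ratios at 28 days and that of Psmb8 at 90 days each had 0.0469. Psmb10 at 90 days had 0.103 and Psmb9 0.852. At 28 days the unadjusted p was 0.0312, the smallest the 64 arrangements allow. FPKM without read totals limit what low genes such as Psma8 can show.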
